A study of Mus musculus with 8 samples.

Results

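Resident-like and alternatively activated macrophage genes were followed in atherosclerotic lesions of the mouse brachiocephalic artery (BCA), a branch of the aortic arch in which advanced plaques form. The set held 10 genes chosen by symbol, Lyve1, Folr2, F13a1, Mrc1, Cd163, Cbr2, Clec10a, Retnla, Arg1 and Chil3, out of the 24391 gene symbols in the count table. All 10 passed the filter on low counts, which kept 15980 genes. RNA sequencing was done on lesions of 8 mice, 4 injected with an antibody against the cytokine interleukin-1β (IL-1β; group IL1_AB) and 4 injected with immunoglobulin G as a control (IgG; group IgG_Control). All 8 were C57BL/6 mice, wild type in a lineage tracing line for smooth muscle cells (SMC), and all ate a Western diet for 18 weeks. The labels used here name no allele or treatment that makes the mice prone to lesions, no Cre driver of the lineage tracing, and no age, dose or length of antibody treatment. Each library is 1 animal, since the design text gives 4 animals per group.

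Macrophages that live in the artery wall are known for making Lyve1, Folr2, F13a1, Mrc1, Cd163 and Cbr2, and lie largely in the adventitia, the outer layer of the vessel. Alternative activation is the state that IL-4 and IL-13 induce in mouse macrophages through the receptor chain IL-4Rα and the transcription factor STAT6, and Arg1, Retnla, Chil3, Clec10a and Mrc1 are its usual marker genes in mice. Inflammatory macrophages, a main source of IL-1β in plaques, are commonly set against both states.

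Between 20137336 and 29453014 reads per library were counted in genes. The share of alignments assigned was 27.9% in antibody animal 3 and 24.4% in IgG animal 2, against 29.6% to 34.9% in the other 6 libraries, and the multimapping share was highest in the same libraries, at 43.0% in antibody animal 3 and 48.0% in IgG animal 2. The tissue label names SMC, epithelial and macrophage cells, and all 6 SMC genes and all 19 general macrophage genes checked passed the filter. Of 8 airway epithelial genes checked, 5 passed. The epithelial marker Epcam, with 52 counts over all 8 libraries, was among those that did not pass.

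The question put to these genes was whether antibody treatment changed their transcript levels in the lesion. All 10 genes had a lower mean level in antibody animals, with log2 fold changes of antibody over IgG from -0.18 for Clec10a to -0.83 for Chil3, and none passed the test. With edgeR's quasi-likelihood F-test and Benjamini-Hochberg adjustment over all genes, 0 of 10 passed an adjusted p of 0.05, as did 0 of 15980 genes in all (0%). The adjusted p was 0.9997 for each of the 10. At an unadjusted p under 0.05 there were 0 of the 10 genes and 509 of all genes (3.19%), of which 329 were lower with the antibody (2.06%). DESeq2 called 0 of the 10 and 8 genes in all (0.0501%), while limma-voom, run with sample quality weights, called 0 of the 10 and 2 in all (0.0125%). At an unadjusted p under 0.05, DESeq2 had 1 of the 10 (F13a1, against 3.54% of all genes) and limma-voom had 6 (F13a1, Mrc1, Cd163, Cbr2, Clec10a and Chil3, against 17.3% of all genes).

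All 10 genes had a log2 fold change of antibody over IgG below 0, where 52.3% of all genes did. Their median log2 fold change was -0.33, against -0.01 over all genes. All 10 were also below 0 with libraries scaled by total counts, where 46.2% of all genes were. The 10 genes were chosen with earlier results of these data known. They also vary together between animals, with a median Pearson's r of 0.51 over their 45 pairs after group means were removed. The 10 signs are therefore not 10 separate observations, and their number is no test of a decrease. The 4 antibody values and the 4 IgG values overlapped for each of the 10 genes. Over all genes, 1.25% had every antibody value below every IgG value, and 1.96% had no overlap in either direction. A bulk lesion sample cannot show whether a lower level comes from fewer cells of a type or from less RNA per cell, and the 2 cannot be told apart for any value that follows.

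**Figure D1:**
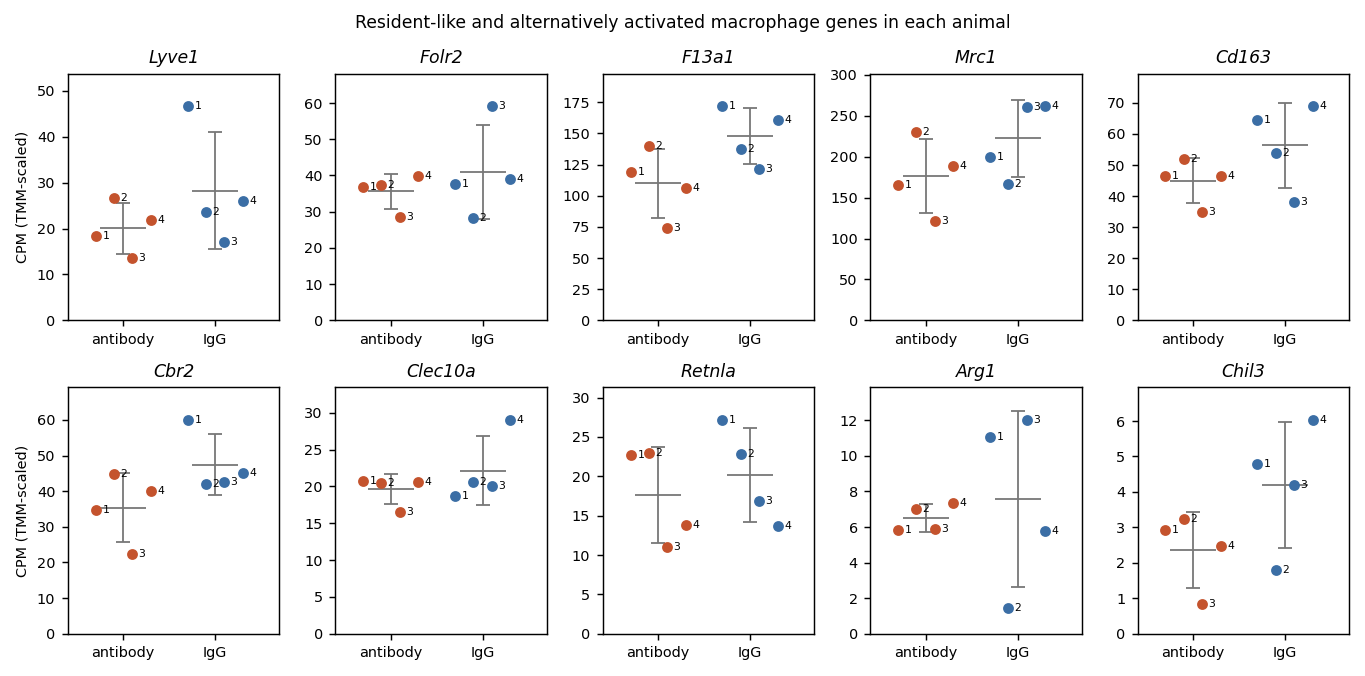
CPM (counts per 1000000, from library sizes scaled by the trimmed mean of M values, TMM) of the 10 genes in each animal, 4 antibody animals in orange and 4 IgG animals in blue, numbered as in the labels. Grey bars give the group mean and the SD over 4 animals. The 2 groups overlap in every panel, and antibody animal 3 is the lowest of all 8 in 8 panels.

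Levels are compared between genes only per length, as CPM per kilobase of the authors' exon length (RPKM). On that scale Cbr2 had 34.7 ± 9.47 RPKM in antibody animals and 46.5 ± 8.35 RPKM in IgG animals (SD, n = 4 each), and the mean over all 8 animals was 40.6 RPKM. Mrc1 followed with a mean of 37.5 RPKM over all 8 animals, then F13a1 with 32.8, Retnla with 31.6 and Folr2 with 28.8 RPKM. These 5 did not separate into an order: each lay above the next in only 4 to 6 of the 8 animals, apart from Folr2, which lay above the next gene, Clec10a, in all 8. Clec10a had a mean of 13.9 RPKM, Cd163 of 11.3 RPKM and Lyve1 of 9.27 RPKM, and each of these lay above the gene after it in 7 of 8 animals. Arg1 (4.76 RPKM) and Chil3 (2.13 RPKM) were the lowest, and Arg1 lay above Chil3 in 6 of 8 animals. The 3 genes most used as signs of alternative activation thus spanned the whole range, with Retnla among the highest 5 and Arg1 and Chil3 at the bottom. For scale, the macrophage growth factor receptor gene Csf1r had 48.2 ± 5.39 RPKM in antibody animals and 62.9 ± 10.2 RPKM in IgG animals. Nos2, the nitric oxide synthase that competes with arginase for arginine, had a mean of 4.68 RPKM over all 8 animals, beside 4.76 RPKM for Arg1.

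Of the 5 receptor genes, Mrc1 encodes the mannose receptor, which takes up glycoproteins and collagen fragments. It lies on chromosome 2 of mm9, from 14151041 to 14253650 on the plus strand, as the deposited exons give it. Mrc1 had 166.1, 230.1, 122 and 189 CPM in antibody animals 1 to 4, against 200.1, 166.3, 261 and 262 CPM in IgG animals 1 to 4. Antibody animal 3 lay below every IgG animal and antibody animal 1 was level with the lowest of them, while antibody animals 2 and 4 lay within the IgG range. The means were 177 ± 45.3 CPM in antibody animals and 222 ± 47.3 CPM in IgG animals (SD, n = 4 each), a log2 fold change of -0.33 ± 0.22 (SE, 95% interval -0.82 to 0.15). Without antibody animal 3 it was -0.19.

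Cd163 encodes the scavenger receptor for haptoglobin bound to haemoglobin (chromosome 6 of mm9, 124254669 to 124280545, plus strand). It had 46.6, 51.8, 34.9 and 46.6 CPM in antibody animals 1 to 4, against 64.4, 53.9, 38.1 and 68.9 CPM in IgG animals 1 to 4. The antibody animals lay close together apart from animal 3, and IgG animal 3 lay below 3 of them. Cd163 had a log2 fold change of -0.32 ± 0.19 (SE, 95% interval -0.76 to 0.11). It was -0.47 without IgG animal 3 and -0.21 without IgG animal 4.

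Lyve1 encodes a hyaluronan receptor that is made by lymphatic endothelial cells as well as by resident macrophages (chromosome 7 of mm9, 117994121 to 118006467, minus strand). It had 18.3, 26.6, 13.5 and 21.8 CPM in antibody animals 1 to 4, against 46.7, 23.5, 17.0 and 25.9 CPM in IgG animals 1 to 4. IgG animal 1 stood well above the other 7, and those 7 overlapped. Lyve1 had a log2 fold change of -0.50 ± 0.31 (SE, 95% interval -1.19 to 0.20), and -0.14 without IgG animal 1. Some lymphatic markers were high and low in the same animals. The summed level of the 8 lymphatic endothelial genes of 9 that passed the filter was 119, 194, 112 and 166 CPM in antibody animals 1 to 4, against 201, 139.7, 185 and 186 CPM in IgG animals 1 to 4 (exact permutation test, two-sided, p = 0.229; adjusted p = 0.754 over 11 marker lists), with 7 of the 8 below 0 in log2 fold change. Most of this sum was Pdpn (means of 41.6 CPM in antibody and 60.8 CPM in IgG animals), Sema3d (35.7 and 35.2 CPM) and Reln (32.1 and 32.9 CPM). Their log2 fold changes were -0.55, 0.02 and -0.03. Nts (-1.26 ± 0.28, no overlap) was the 1 gene of the 8 at an unadjusted p under 0.05 in edgeR, against 3.19% of all genes. Mmrn1, a lymphatic endothelial secreted protein, was lowest in antibody animal 3 (3.89 CPM) and highest in IgG animal 1 (34.5 CPM), the same 2 animals as for Lyve1. Prox1, the factor that defines lymphatic identity, lay between 1.48 and 4.24 CPM, and the lymphatic chemokine gene Ccl21a was at 0 counts in all 8 libraries. Reads that map to several places were not counted, so 0 counts do not show that the Ccl21a transcript was absent. The part of lymphatic cells in the Lyve1 values was not tested.

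Folr2 encodes folate receptor β (chromosome 7 of mm9, 108988502 to 109005704, minus strand). It had 36.9, 37.3, 28.4 and 39.7 CPM in antibody animals 1 to 4, against 37.6, 28.1, 59.1 and 39.1 CPM in IgG animals 1 to 4. Both groups lay between 28 and 40 CPM apart from IgG animal 3, and the lowest of all 8 values was in an IgG animal. Folr2 had a log2 fold change of -0.20 ± 0.21 (SE, 95% interval -0.68 to 0.27), and 0.026 without IgG animal 3.

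Clec10a encodes a galactose-binding C-type lectin found on alternatively activated macrophages and on dendritic cells (chromosome 11 of mm9, 69980125 to 69984338, plus strand). It had 20.8, 20.5, 16.6 and 20.6 CPM in antibody animals 1 to 4, against 18.7, 20.7, 20.1 and 29.1 CPM in IgG animals 1 to 4. Of the 8 values, 6 lay between 18 and 21 CPM, and the group difference came down to antibody animal 3 below them and IgG animal 4 above them. The log2 fold change was -0.18 ± 0.16 (SE, 95% interval -0.53 to 0.18), and -0.02 without IgG animal 4. The summed level of 8 dendritic cell genes ranged from 290.0 to 449.7 CPM in antibody animals and from 176 to 551 CPM in IgG animals. Most of this sum was a single gene, Itgax, with a mean of 328 of 368 CPM in antibody animals and 304 of 346 CPM in IgG animals. The part of dendritic cells in the Clec10a values was not tested. Reads that Clec10a shares with its neighbour gene Mgl2 were left out of both counts. Of the 50-base windows of a Clec10a transcript of 2332 bases (GENCODE M21), 10.6% also occur in Mgl2 transcripts. The counted exons have 1501 bases, and the shared part of that length was not measured, so the Clec10a level is uncertain by an unknown share.

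Of the 3 enzyme genes, F13a1 encodes the A subunit of coagulation factor XIII, a transglutaminase that cross-links fibrin (chromosome 13 of mm9, 36959047 to 37142113, minus strand). It had 119, 140.2, 74.2 and 106 CPM in antibody animals 1 to 4, against 172, 138, 122 and 160.4 CPM in IgG animals 1 to 4. Antibody animals 1, 3 and 4 lay below every IgG animal, and antibody animal 2 lay within the IgG range. The means were 110.0 ± 27.7 CPM in antibody animals and 148 ± 22.5 CPM in IgG animals (SD, n = 4 each), a log2 fold change of -0.43 ± 0.19 (SE, 95% interval -0.86 to 0.01). Its unadjusted p was the smallest of the 10 genes in edgeR, 0.0538. The log2 fold change was -0.28 without antibody animal 3 and -0.57 without antibody animal 2. Platelets also carry factor XIII, and the summed level of 7 platelet genes ranged from 12.2 to 42.2 CPM in antibody animals and from 12.9 to 26.4 CPM in IgG animals, with 6 of the 7 above 0 in log2 fold change.

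Cbr2 encodes a carbonyl reductase, known in mice from lung and from resident macrophages (chromosome 11 of mm9, 120590799 to 120593335, minus strand). It had 34.7, 44.8, 22.3 and 39.9 CPM in antibody animals 1 to 4, against 60.1, 42.1, 42.5 and 45.2 CPM in IgG animals 1 to 4. As for F13a1, antibody animals 1, 3 and 4 lay below every IgG animal and antibody animal 2 did not. Cbr2 had a log2 fold change of -0.42 ± 0.21 (SE, 95% interval -0.90 to 0.05), and -0.25 without antibody animal 3. Airway epithelial genes lay on the same side: the summed level of the 5 such genes of 8 that passed the filter was 18.6, 18.8, 13.6 and 13.9 CPM in antibody animals 1 to 4, against 54.9, 23.7, 21.2 and 40.6 CPM in IgG animals 1 to 4. These sums did not overlap between groups. Their exact permutation p of 0.0286 (two-sided) is the smallest that 4 against 4 animals can give; adjusted over 11 marker lists it was 0.314. Scgb1a1, the secretory protein of airway club cells, had 0.263 CPM in antibody animal 3, the animal with the lowest Cbr2 level, and 14.1 CPM in IgG animal 1, the one with the highest. All 5 were below 0 in log2 fold change, and Sftpc, Sftpa1 and Epcam, which did not pass the filter, are not in the sum. The part of airway cells in the Cbr2 values was not tested.

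Arg1 encodes arginase 1, which turns arginine into ornithine and urea (chromosome 10 of mm9, 24635013 to 24647276, minus strand). It had 119, 200, 134 and 181 counts in antibody animals 1 to 4, against 323, 31, 334 and 171 counts in IgG animals 1 to 4. As CPM these were 5.81, 7.01, 5.86 and 7.33 in antibody animals, against 11.1, 1.43, 12.04 and 5.77 in IgG animals. All 4 antibody animals lay inside the IgG range, which ran from the lowest to the highest of all 8 values. The SD was 0.780 CPM in antibody animals and 4.94 CPM in IgG animals (n = 4 each). The log2 fold change was -0.22 ± 0.50 (SE, 95% interval -1.35 to 0.90). It was -0.56 without IgG animal 2, and 0.025 and 0.089 without IgG animal 1 or 3, so its sign rested on single IgG animals.

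Of the 2 genes of secreted proteins, Retnla encodes resistin-like molecule α, made by alternatively activated macrophages and by adipose tissue (chromosome 16 of mm9, 48842665 to 48844574, plus strand). It had 22.6, 22.9, 11.1 and 13.8 CPM in antibody animals 1 to 4, against 27.2, 22.8, 16.9 and 13.7 CPM in IgG animals 1 to 4. Each group held animals above 22 CPM and animals below 17 CPM, so that the spread within groups exceeded the difference between them. The log2 fold change was -0.19 ± 0.28 (SE, 95% interval -0.83 to 0.44), and -0.01 without IgG animal 1. The summed level of 9 adipocyte genes was 9459 CPM in antibody animal 3, where Retnla was lowest, against 3888 to 5605 CPM in the other antibody animals and 4718 to 5088 CPM in IgG animals. Most of this sum was Fabp4 and the brown fat gene Ucp1. Their means were 2595 and 1412 of 5997 CPM in antibody animals, and 2189 and 1043 of 4876 CPM in IgG animals. Of these 9 genes, 6 were above 0 and 3 below 0 in log2 fold change (median 0.25). Retn, a relative of Retnla and 1 of the 3 below 0, had 28.3, 17.7, 12.4 and 15.1 CPM in antibody animals 1 to 4, against 30.1, 12.1, 19.9 and 32.1 CPM in IgG animals 1 to 4. The part of adipocytes in the Retnla values was not tested.

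Chil3 encodes a chitinase-like protein that mouse alternatively activated macrophages secrete (chromosome 3 of mm9, 105950472 to 105970482, minus strand). It had 60, 92, 19 and 61 counts in antibody animals 1 to 4, against 140, 39, 116 and 179 counts in IgG animals 1 to 4. As CPM these were 2.93, 3.22, 0.831 and 2.47 in antibody animals, against 4.79, 1.80, 4.18 and 6.04 in IgG animals. IgG animals 1, 3 and 4 lay above every antibody animal, and IgG animal 2 lay below 3 of them. The means were 2.36 ± 1.07 CPM in antibody animals and 4.20 ± 1.78 CPM in IgG animals (SD, n = 4 each), and the log2 fold change, the lowest of the 10 genes, was -0.83 ± 0.45 (SE, 95% interval -1.83 to 0.17). It was -0.55 without antibody animal 3 and -1.08 without IgG animal 2. The near copy Chil4 had 0 to 3 counts per library. Of the 50-base windows of the Chil3 transcript 18.5% also occur in Chil4, and reads from those stretches were left out, so the Chil3 level is uncertain by that share.

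**Figure D2:**
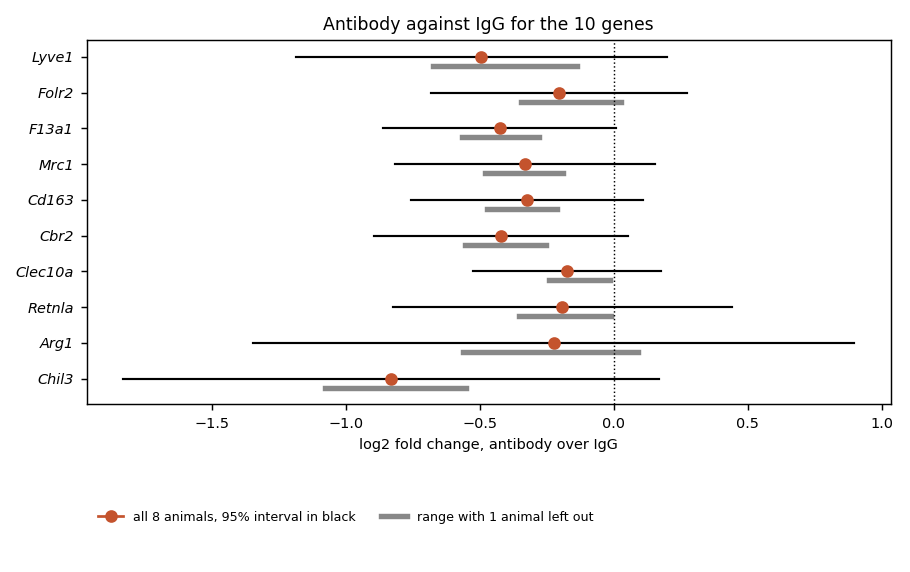
Log2 fold change of antibody over IgG for the 10 genes, with points and black 95% intervals from the edgeR fit of all 8 animals and grey bars for the range when 1 animal was left out. All 10 points lie below 0 and all 10 intervals include 0. The grey bars of Folr2 and Arg1 cross 0.

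The promoter of Retnla is shown because this gene is a standard target of STAT6 in mice. The stretches here and below are the 250 bases before the start site in RefSeq (GRCm38.p6), whose coordinates differ from the mm9 coordinates above. RefSeq promoters were matched for 7 of the 10 genes, with 9 entries, and Lyve1, Clec10a and Arg1 had no entry. Capitals mark matches on either strand to 5 motifs: the STAT6 site (TTC and GAA with any 4 bases between), the general STAT site (TTC and GAA with any 3 bases between), the core GAGGAA bound by the macrophage factor PU.1, the C/EBP sequence TTNNGCAA and the MAF sequence TGCTGAC. No 2 matches overlapped. Retnla lies at chr16:48842359-48842608 on the plus strand.
Retnla: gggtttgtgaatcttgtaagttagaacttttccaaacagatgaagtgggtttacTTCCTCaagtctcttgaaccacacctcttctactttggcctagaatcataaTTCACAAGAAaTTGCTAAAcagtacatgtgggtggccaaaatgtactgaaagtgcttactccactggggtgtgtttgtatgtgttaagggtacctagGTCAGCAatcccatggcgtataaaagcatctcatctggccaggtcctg
The Retnla stretch held the STAT6 site as TTCACAAGAA, from base -145 to -136 before the start site, with a C/EBP match next to it from -134 to -127, a PU.1 core from -196 to -191 and a MAF match from -48 to -42. Over all 32851 RefSeq mouse promoters of 300 bases (250 before the start site and 50 from it on), 6.95% held the STAT6 site, 10.8% the C/EBP sequence, 28.3% the PU.1 core and 4.67% the MAF sequence. Of the 9 entries for these genes, 2 held the STAT6 site, 1 the C/EBP sequence, 5 the PU.1 core and 2 the MAF sequence. A match is a description of letters and does not show that a factor binds.

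Animals differed from each other in the same direction for most of the 10 genes. Antibody animal 3 had the lowest value of all 8 for 8 genes (Lyve1, F13a1, Mrc1, Cd163, Cbr2, Clec10a, Retnla and Chil3), and IgG animal 2 had the lowest for the other 2, Folr2 and Arg1. The highest value was in IgG animal 1 for Lyve1, F13a1, Cbr2 and Retnla, in IgG animal 4 for Mrc1, Cd163, Clec10a and Chil3, and in IgG animal 3 for Folr2 and Arg1. No antibody animal had the highest value of any of the 10. Antibody animal 3 also had a low assigned share of alignments (27.9%), the highest adipocyte sum and the lowest SMC sum (1406 CPM, against 2039.8 to 3846 CPM in the other antibody animals and 2164 to 2854 CPM in IgG animals). Their part in its low values was not tested. IgG animal 2 had a still lower assigned share (24.4%), and held places 3 to 7 of 8, from the highest down, for the genes other than Folr2 and Arg1. The share of all genes with their lowest value in antibody animal 3 was not counted. Without antibody animal 3 all 10 genes stayed below 0, with a median log2 fold change of -0.20. Without both antibody animal 3 and IgG animal 2, 9 were below 0 with a median of -0.29. The ratio of the highest to the lowest animal was 8.43 for Arg1 and 7.27 for Chil3, and between 1.75 (Clec10a) and 3.45 (Lyve1) for the other 8.

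**Figure D3:**
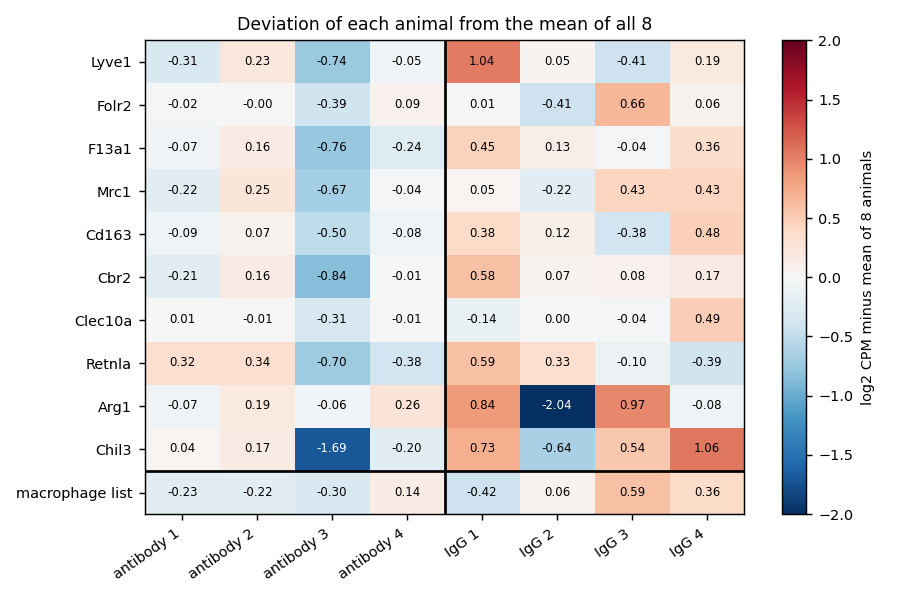
Log2 CPM of each of the 10 genes in each animal minus the mean of all 8 animals, with antibody animals in the left block and IgG animals in the right block. The bottom line gives the mean of the 19 general macrophage genes on the same scale. Antibody animal 3 is below the mean for all 10 genes, and IgG animal 1 is above it for 9 of 10 while its macrophage level is the lowest of the 8.

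Within groups the 10 genes did not all vary together. Likeness was measured as Pearson's r of log2 CPM over the 8 animals after the group means were removed, among 14642 genes with a mean of at least 1 CPM, and is a description of 8 libraries that share depth and tissue makeup. Lyve1, F13a1, Cbr2 and Cd163 varied together. The r was 0.90 for Cbr2 and F13a1, 0.85 for Cbr2 and Lyve1, 0.85 for Cd163 and F13a1, 0.81 for Lyve1 with F13a1 and with Cd163, and 0.68 for Cd163 and Cbr2. This did not follow the resident-like genes as a class. With F13a1, Cbr2, Cd163 and Lyve1 in turn, Chil3 had r of 0.78, 0.76, 0.56 and 0.51, and Retnla 0.70, 0.66, 0.39 and 0.62. Mrc1, a resident-like gene, had 0.58, 0.62, 0.30 and 0.24. Mrc1 and Chil3 had an r of 0.86. Folr2, also a resident-like gene, was unlike that first set, with r of -0.11 to Lyve1, 0.11 to F13a1 and -0.26 to Cd163, and was most like Arg1 (0.77) and Mrc1 (0.76). Arg1 and Retnla, both named for alternative activation, had an r of -0.07. Of the 45 pairs, 6 had an r over 0.8, 7 were below 0 and the median was 0.51. Among all pairs of the 14642 genes, 4.94% had an r over 0.8 and 50.3% were below 0.

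**Figure D4:**
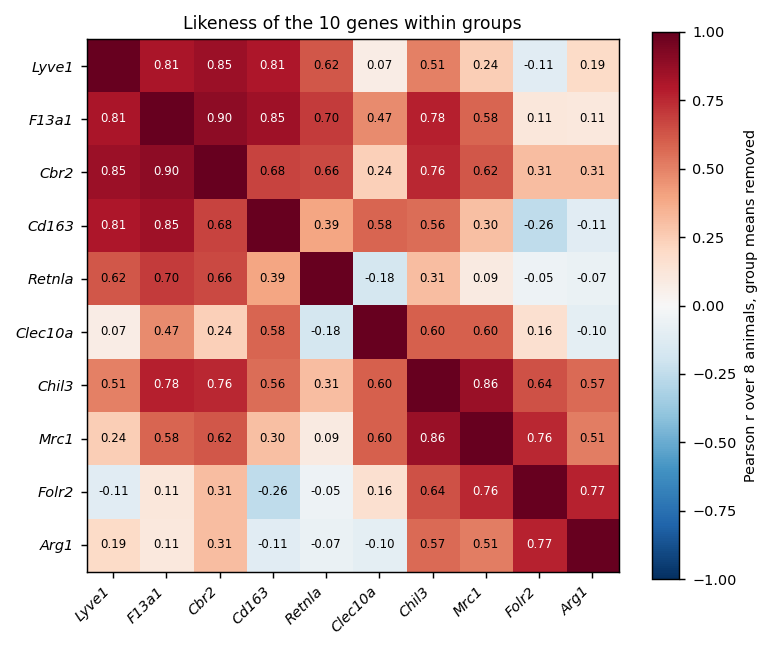
Pearson's r of log2 CPM between the 10 genes over 8 animals after group means were removed, in an order chosen for display. The block of Lyve1, F13a1, Cbr2 and Cd163 holds values from 0.68 to 0.90, and Folr2 and Arg1 have values from -0.26 to 0.31 with those 4 genes.

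The promoters of the most alike pair of each pattern, Cbr2 with F13a1 and Chil3 with Mrc1, are shown with the same motifs in capitals. Cbr2 lies at chr11:120732022-120732271 on the minus strand, F13a1, shown by the first of its 2 entries, at chr13:37050245-37050494 on the minus strand, Chil3 at chr3:106167565-106167814 on the minus strand and Mrc1 at chr2:14229164-14229413 on the plus strand.
Cbr2: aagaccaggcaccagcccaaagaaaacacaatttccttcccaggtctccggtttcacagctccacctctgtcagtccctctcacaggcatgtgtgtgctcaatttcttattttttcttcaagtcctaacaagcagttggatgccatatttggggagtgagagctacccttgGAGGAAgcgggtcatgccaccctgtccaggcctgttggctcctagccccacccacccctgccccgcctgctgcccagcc
F13a1: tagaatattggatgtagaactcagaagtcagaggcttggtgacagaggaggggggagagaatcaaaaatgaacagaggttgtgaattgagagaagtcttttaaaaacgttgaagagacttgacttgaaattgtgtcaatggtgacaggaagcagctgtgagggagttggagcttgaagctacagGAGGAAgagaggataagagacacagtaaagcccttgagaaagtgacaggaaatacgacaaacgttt
Chil3: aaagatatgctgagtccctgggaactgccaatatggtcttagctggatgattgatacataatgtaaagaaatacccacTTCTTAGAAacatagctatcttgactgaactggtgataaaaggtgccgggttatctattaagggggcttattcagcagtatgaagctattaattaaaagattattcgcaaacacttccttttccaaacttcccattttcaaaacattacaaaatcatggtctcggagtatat
Mrc1: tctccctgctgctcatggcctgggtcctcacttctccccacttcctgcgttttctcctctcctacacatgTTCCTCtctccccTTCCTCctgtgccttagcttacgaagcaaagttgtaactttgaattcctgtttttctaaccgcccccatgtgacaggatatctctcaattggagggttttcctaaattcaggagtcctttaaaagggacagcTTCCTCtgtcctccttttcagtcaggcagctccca
Cbr2 and F13a1 each held 1 PU.1 core in this stretch, Mrc1 held 3, and Chil3 held none. Chil3 held the general STAT site as TTCTTAGAA from base -172 to -164, which 8.3% of all promoters hold. Of the 5 motifs, the PU.1 core was shared by the pair of Cbr2 and F13a1, and no motif was shared by the pair of Chil3 and Mrc1.

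The genes nearest to each of the 10 by the same measure were none of the others. The 3 nearest genes of each made 30 different genes, of which 0 were among the 10 and 0 were on any list used here. Mrc1 was nearest to Fam3a, Antxr2 and Glg1 (r of 0.99 each), Cd163 to Zfp503, Skida1 and Homer2 (0.96 to 0.97), Lyve1 to Peg13, Dnah5 and Nebl (0.97 to 0.98), Folr2 to Papss1, Serpinb8 and Adss (0.98) and Clec10a to B3galt2, C4b and Bmper (0.93 to 0.94). F13a1 was nearest to Scin, Loxl4 and Pi16 (0.98), Cbr2 to Mtus2, Mylk4 and Dmd (0.98), Arg1 to Ccndbp1, Atpif1 and Calm2 (0.99), Retnla to Coil, Tnnc2 and Igf2bp3 (0.94 to 0.99) and Chil3 to Grb10, Zfp9 and Cdyl2 (0.97 to 0.99). With 8 animals many of the 14642 genes reach such values.

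General macrophage genes lay on the same side as the 10 genes and did not pass the test either. All 19 general macrophage genes had a log2 fold change below 0 (median -0.35), and 0 of 19 passed in edgeR. At an unadjusted p under 0.05 there were 3, against 3.19% of all genes. They were Ptprc, the pan-leukocyte gene of CD45 (-0.43 ± 0.14), Csf1r (-0.38 ± 0.15) and the chemokine receptor gene Cx3cr1 (-0.43 ± 0.17). The groups of Cx3cr1 did not overlap, nor did those of 1.96% of all genes. Without IgG animal 3 the median was -0.19, with 16 of 19 below 0. Their summed level was 6446, 6154, 6478 and 8981 CPM in antibody animals 1 to 4, against 5221, 7704, 13523 and 10821 CPM in IgG animals 1 to 4. The groups overlapped, with the lowest and the highest sum both in IgG animals. The difference of the means was -2302 CPM (7015 ± 1319 CPM in antibody animals and 9317 ± 3621 CPM in IgG animals, SD, n = 4 each), with an exact permutation p of 0.286 (two-sided; adjusted p = 0.754 over 11 marker lists). Without IgG animal 3 the difference was -900.2 CPM, and without IgG animal 1 it was -3668 CPM. Lyz2 was the largest part of these sums, with 3777 ± 818 CPM in antibody animals and 5277 ± 2346 CPM in IgG animals (SD, n = 4 each).

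Each of the 10 genes was then set against the macrophage level of the same animal, the mean log2 CPM of the 19 genes. For 0 of 10 did the correlation pass after adjustment over the 10. The highest were Folr2 (Pearson's r = 0.63, exact permutation p = 0.0853, adjusted p = 0.511; Spearman's rho = 0.60, p = 0.132, adjusted p = 0.661; n = 8) and Mrc1 (r = 0.62, exact permutation p = 0.102, adjusted p = 0.511; rho = 0.62, p = 0.115, adjusted p = 0.661). Without the 2 animals farthest from the median macrophage level, IgG animals 3 and 4, the r was -0.05 for Folr2 and 0.07 for Mrc1, so both relations rested on those animals. Clec10a had an r of 0.55 (exact permutation p = 0.154, adjusted p = 0.514; rho = 0.45, p = 0.267, adjusted p = 0.892), and 0.57 without those 2 animals. F13a1, Cbr2, Cd163 and Arg1 had r between -0.07 and 0.14, Chil3 0.37, Lyve1 -0.28 and Retnla -0.37 (exact permutation p between 0.368 and 0.932, adjusted p between 0.752 and 0.932). Their rho lay between -0.36 for Retnla and 0.26 for Chil3 (exact permutation p between 0.389 and 0.977, adjusted p between 0.973 and 0.977). Without IgG animals 3 and 4 the r of Arg1 was -0.56, and those of the other 6 lay between -0.25 and -0.03. IgG animal 1 had the lowest macrophage level of the 8 and the highest Lyve1, F13a1, Cbr2 and Retnla.

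With the macrophage level as a covariate in the edgeR fit, 0 of the 10 genes passed (adjusted p = 0.9999 each) and all 10 stayed below 0, where 49.3% of all genes did. At an unadjusted p under 0.05 there were 2 of the 10 and 3.52% of all genes. They were Lyve1, with a log2 fold change of -0.68 ± 0.27 (SE), and F13a1, with -0.50 ± 0.21 (SE). Cbr2 (-0.48), Retnla (-0.41) and Cd163 (-0.40) lay further below 0 than without the covariate. Mrc1 (-0.17), Clec10a (-0.07), Folr2 (-0.01), Arg1 (-0.19) and Chil3 (-0.76) lay nearer to 0. Whether the genes differ from each other in this was not tested.

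Among 34 other genes of resident macrophages, 28 were below 0 and 6 above 0 in log2 fold change (median -0.27), and 0 passed in edgeR (adjusted p = 0.9997). Without antibody animal 3 the median was -0.18. Maf, a transcription factor of resident macrophages, had 47.6 ± 2.96 CPM in antibody animals and 61.7 ± 4.02 CPM in IgG animals (SD, n = 4 each), with no overlap, and a log2 fold change of -0.37 ± 0.09. Hpgd, which breaks down prostaglandins, had 5.64 ± 1.51 CPM in antibody animals and 11.2 ± 3.84 CPM in IgG animals, a log2 fold change of -0.998 ± 0.28. The mouse chemokine gene Ccl6 and the complement receptor gene Vsig4 each had -0.70 (SE 0.26 and 0.29). With Selenop, the gene of a secreted selenium carrier (-0.43 ± 0.18), named here after its value was seen, these were the 5 of 34 at an unadjusted p under 0.05. Over all genes 3.19% were at that bound, and 1.96% had groups without overlap, as Maf did. This list was chosen with earlier results of these data known, so the count is no test of it. With the macrophage level as a covariate 23 of the 34 were below 0 and the median was -0.15.

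The cytokines that induce alternative activation had few counts in any lesion. Il4 had 4, 8, 2 and 3 counts in antibody animals 1 to 4, against 4, 3, 1 and 9 counts in IgG animals 1 to 4, and Il13 had 0 counts in each antibody animal, against 0, 4, 2 and 1 counts in IgG animals 1 to 4. Neither passed the filter, so no difference was detectable at this depth. Of 30 genes of the IL-4 and IL-13 pathway 24 passed the filter, 18 were below 0 and 6 above 0 (median -0.18), and 0 passed in edgeR. Il2rg, the receptor chain shared by several cytokines including IL-4, was the 1 gene of the 24 at an unadjusted p under 0.05, against 3.19% of all genes. It had 15.7 ± 3.31 CPM in antibody animals and 25.1 ± 6.17 CPM in IgG animals (SD, n = 4 each) and a log2 fold change of -0.68 ± 0.21. Il4ra, the signalling chain, had 128 ± 12.1 CPM in antibody animals and 151 ± 31.8 CPM in IgG animals, and Stat6 had 128 ± 1.41 CPM in antibody animals and 142 ± 12.6 CPM in IgG animals. Their log2 fold changes were -0.23 ± 0.16 and -0.15 ± 0.10, and that of Fcer2a, the low-affinity IgE receptor gene, was -0.79 ± 0.48.

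A list of genes related to the 10 by family or by function, with genes of arginine use, gave 24 tested of 30. Of these, 18 were below 0 and 6 above 0, with a median log2 fold change of -0.15, and 0 passed in edgeR. The median was -0.080 without antibody animal 3 and -0.081 without IgG animal 3. Of the relatives, Mgl2, next to Clec10a, had -0.15 ± 0.16, Mrc2, the relative of Mrc1, -0.27 ± 0.15, and Folr1, the relative of Folr2, -0.14 ± 0.46. Arg2, the mitochondrial arginase, had 1.58 ± 0.357 CPM in antibody animals and 2.78 ± 2.13 CPM in IgG animals, a log2 fold change of -0.82 ± 0.52. Nos2 had 17.1 ± 5.30 CPM in antibody animals and 20.3 ± 5.95 CPM in IgG animals (-0.25 ± 0.27), the same direction as Arg1 and within the spread between animals. Retn and Retnlg, relatives of Retnla, had -0.36 ± 0.33 and 0.76 ± 0.59. Cbr1, a carbonyl reductase as Cbr2 is, stood on the other side, with 32.6 ± 2.34 CPM in antibody animals and 26.5 ± 2.22 CPM in IgG animals, no overlap and a log2 fold change of 0.30 ± 0.10. Ly75, a lectin receptor of the Mrc1 family, had -0.53 ± 0.18, also with no overlap, the haemoglobin receptor relative Cd163l1 had -0.48 ± 0.20 and the hyaluronan receptor gene Hmmr had -0.54 ± 0.23. These last 4, Cbr1, Ly75, Cd163l1 and Hmmr, were the genes of the 24 at an unadjusted p under 0.05, against 3.19% of all genes. Groups without overlap, as for Cbr1 and Ly75, were found for 1.96% of all genes.

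**Figure D5:**
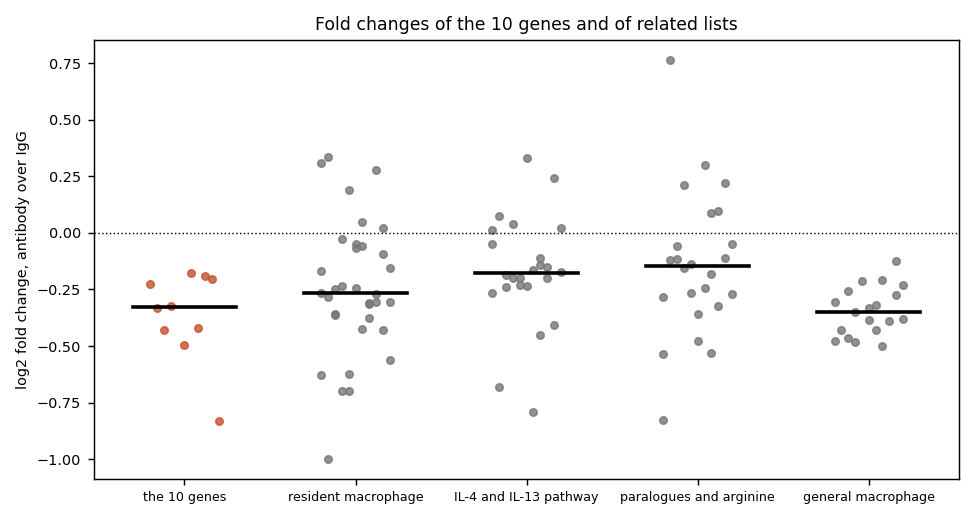
Log2 fold change of antibody over IgG for the 10 genes (orange) and for the genes tested in 4 related lists (grey), with a black line at the median of each. Each point is 1 gene. The medians are -0.33 for the 10 genes, -0.27 for resident macrophage genes, -0.18 for the IL-4 and IL-13 pathway, -0.15 for genes related by family or function with arginine genes and -0.35 for general macrophage genes, against -0.01 over all genes.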

How the data were processed

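RNA from flash-frozen BCA lesions was extracted with Trizol, per the labels' protocols, and total RNA was sequenced on a HiSeq instrument. The values used are raw counts of reads per gene, deposited by the authors as 1 table for 8 libraries, with a second table of alignment counts by status. The authors ran featureCounts 1.4.6-p4 over exons, per the file headers, grouped by gene name on the UCSC annotation of mm9, and the header shows no option for strand. Reads from an antisense transcript therefore count for the gene they lie over, but no exon of the 10 genes overlaps an exon of another symbol. The deposited status table lists multimapping and ambiguous reads as unassigned. The submitters' processing notes also name CASAVA, STAR 3.0, Subread and DESeq2. The deposited exon length, another of the authors' values, was used for RPKM only. Of the 24391 symbols, 2802 had no count in any library, and every count column was used.

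Groups came from the sample titles. Genes were filtered with filterByExpr (minimum count 10, minimum total count 15), scaled by TMM and tested, antibody over IgG, with edgeR 4.0.16 (quasi-likelihood F-test, robust, R 4.3.3), with Benjamini-Hochberg adjustment over 15980 genes and a threshold of 0.05. Standard errors are the log2 fold change over the root of its F statistic. DESeq2 1.42.0, limma-voom (limma 3.58.1), other scalings, no filter, a replicate block, a macrophage covariate and leaving out animals were alternatives. Exact permutation tests of the marker sums used SciPy 1.17.1, and those of the correlations went through all pairings of the animals' values. The code was tested on simulated data. Log2 CPM used a prior count of 2. All 10 genes are named; of each related list up to 4 genes with the smallest p, the relatives listed and Nos2 are named, and for likeness the 3 nearest genes. The 10 genes and all lists were chosen with earlier results of these data known. No pair of libraries was alike within counting noise (lowest chi-square per degree of freedom 27.9). Intervals of the fold changes cover the spread between animals as these libraries show it.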

Additional observations from a re-analysis of the deposited data

Results flagged for a closer look

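Of 22 groups of 4 animals examined for a value that stands apart, 2 had one, by a gap to the nearest animal that, as a share of the group's range, is above Dixon's 95% critical value. Chance gives about 1 such value in 20 groups. Clec10a had 16.6 CPM in antibody animal 3, below the other 3 antibody animals (20.5 to 20.8 CPM), a gap of 0.931 of the range. The summed level of the 19 general macrophage genes was 8981 CPM in antibody animal 4, above the other 3 antibody animals (6154 to 6478 CPM), a gap of 0.885 of the range.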

How the results depend on the processing

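Under 16 alternatives of the fit, 0 of the 10 genes passed in any, and the smallest adjusted p of any of them was 0.206 (limma-voom). All 10 were below 0 in 11 of the 16, and at least 8 in each. Of 160 log2 fold changes, 7 changed sign, in Folr2, Retnla and Arg1: Retnla was 0.26 in limma-voom and 0.052 without both IgG animal 2 and antibody animal 3, and Arg1 was 0.063 in limma-voom. With 1 animal left out, Folr2 ranged from -0.35 to 0.026 and Arg1 from -0.56 to 0.089. The cause was not tested. The number of genes called was 8 in DESeq2, 2 in limma-voom, and 0 to 1 with 1 animal left out; at an unadjusted p under 0.05 it ran from 310 without IgG animal 4 and 336 without antibody animal 3 to 783 without antibody animal 2 and 1517 without IgG animal 1. The correlation with the macrophage level, passed by 0 of 10 throughout, ranged with 1 animal left out from -0.61 to 0.18 for Lyve1, -0.31 to 0.44 for F13a1, -0.41 to 0.36 for Cd163, -0.29 to 0.58 for Cbr2 and -0.38 to 0.26 for Arg1. Same-numbered animals were not paired by the labels, and their deviations correlated with r of 0.29, -0.34, -0.13 and -0.00, so the number is only a name. With the replicate block 0 genes were called and Arg1 was 0.070. With 4 animals a group the median gene's 95% interval reached 0.40 to either side on the log2 scale, and Arg1 and Chil3, with as few as 31 and 19 counts in a library, were the least precise of the 10.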
